A study of Mus musculus with 9 samples.

Results

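Collagens are the triple-helical proteins that give the extracellular matrix its strength, and they were examined here as a gene family in whole neuroblastoma tumors. Every symbol in the deposited count table made of Col, a type number, the letter a and a chain number was taken as a member, which gave 44 of 54429 symbols. Of these, 11 encode fibrillar collagens, 6 encode the type IV collagens of basement membranes and 27 encode other collagens. All 44 members carried 1 identifier in the GENCODE M21 annotation of the mouse build GRCm38 (mm10).

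The samples were 9 whole tumors grown under the skin of wild-type C57BL/6 mice from implanted NB9464 cells, a mouse neuroblastoma line driven by MYCN. Treatment started at a tumor volume of 250 mm3, and 4 doses fell between day 28 and day 37. The 3 Vehicle tumors are labeled only as Vehicle, and whether they also received the isotype control antibody named in the study's methods is not stated. The 3 R788 + anti-PDL1 tumors received R788 (fostamatinib), an inhibitor of the kinase Syk, at 50 mg/kg together with an antibody (clone 10F.9G2) against the checkpoint ligand PD-L1. The 3 Rad + R788 + anti-PDL1 tumors, called irradiated below, received the same agents plus 10 Gy of radiation. The labels give neither the age nor the sex of the mice, which the study's methods describe as a few weeks old at implantation. Radiation alone, R788 alone and the antibody alone were not analysed here. The tumors all come from 1 cell line, and whole-tumor RNA mixes tumor, stromal and immune cells, so fewer cells of a type and less RNA per cell cannot be told apart. The labels number the tumors within each group without stating that each came from its own mouse, so p-values measure only the spread between these samples.

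Fibrillar collagens such as types I, III and V assemble into the banded fibers of connective tissue and are made mainly by fibroblasts and other mesenchymal cells. Type IV collagens form the sheet-like network under epithelium and around vessels, and are made as heterotrimers. Their genes lie in head-to-head pairs. The remaining collagens include the beaded filaments of type VI, the FACIT collagens that sit on fibril surfaces, the multiplexins whose fragments include endostatin, short-chain network collagens, membrane-spanning collagens and the anchoring fibril collagen VII.

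Total counts were 18276683 to 23397886 per library. Irradiated replicate 1 stood apart from the other libraries. Its normalization factor (TMM) was 0.743 against 0.975 to 1.12 in the other 8, its share of counts from mitochondrial genes was 1.97% where the others had 3.48% to 5.71%, and its correlation with the others across genes was 0.865 to 0.907 against 0.937 to 0.980 among them. Collagens took 0.364% of the counts in this library, the lowest share, and 0.967% in R788 + anti-PDL1 replicate 2, the highest. In the latter, the summed level of 8 fibroblast markers was 338 CPM (counts scaled to a common effective library size) against 100.1 to 227 CPM in the other 8 libraries, and that of 7 endothelial markers was 123 CPM against 37.8 to 69.4 CPM. The fibroblast markers Pdgfra, Dcn, Thy1, Mfap5 and Pi16 were highest in R788 + anti-PDL1 replicate 2. Lum, Dpt and Fap were not. In that library Lum was 21.02 CPM against 27.93 CPM in Vehicle replicate 2. Dpt was 68.75 CPM there against 95.07 CPM in Vehicle replicate 1. Fap was 7.644 CPM there and 10.91 to 15.71 CPM in irradiated tumors. Among the neuroblastoma markers, Hand2 (325 to 867 CPM) and Mycn (93.3 to 250.3 CPM) were abundant. Th, the enzyme that starts catecholamine synthesis, was at 0 in all 9 libraries, and Phox2a and Dbh never passed 3 counts. Fold changes of single collagens that moved by over 1.5 times when a library was left out are given with and without it.

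Reference sequences are shown for collagen genes whose balance the results below turn on. They come from RefSeq (GRCm38.p6), which held an entry for 35 of the 44 members. Each is written 5′ to 3′ on the strand of its gene, and capitals mark the TATA-box letters TATAAA, the CCAAT box, spelled CCAAT, or the GC box, spelled GGGCGG, on either strand. Col4a1 and Col4a2, whose chains assemble together, lie head to head on chromosome 8 and overlap by 22 bases at their annotated starts (chr8:11312805-11312826, first exon of each, printed on the strand of Col4a2). For Col3a1 the 250 bases before the annotated start are shown (chr1:45311288-45311537, plus strand, intergenic). For Col1a2 the stretch lies before the RefSeq start and inside an intron of a longer GENCODE transcript (chr6:4505370-4505492, plus strand). Col6a1 (chr10:76726169-76726294, minus strand) and Col6a2 (chr10:76623631-76623880, minus strand) are shown upstream of their first exons. Their gene bodies lie 85.2 kb apart on the same strand.
Col4a2 and Col4a1, shared start: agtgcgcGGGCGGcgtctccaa
Col3a1: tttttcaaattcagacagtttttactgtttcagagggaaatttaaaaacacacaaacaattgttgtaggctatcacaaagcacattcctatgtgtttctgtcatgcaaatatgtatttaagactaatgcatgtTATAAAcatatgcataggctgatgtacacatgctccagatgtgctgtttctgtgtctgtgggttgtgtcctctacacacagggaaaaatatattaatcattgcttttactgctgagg
Col1a2: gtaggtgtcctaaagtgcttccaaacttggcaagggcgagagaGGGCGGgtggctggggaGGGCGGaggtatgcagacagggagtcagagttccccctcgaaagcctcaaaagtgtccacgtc
Col6a1: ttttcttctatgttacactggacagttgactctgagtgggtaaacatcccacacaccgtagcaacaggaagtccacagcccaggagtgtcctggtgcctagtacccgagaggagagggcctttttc
Col6a2: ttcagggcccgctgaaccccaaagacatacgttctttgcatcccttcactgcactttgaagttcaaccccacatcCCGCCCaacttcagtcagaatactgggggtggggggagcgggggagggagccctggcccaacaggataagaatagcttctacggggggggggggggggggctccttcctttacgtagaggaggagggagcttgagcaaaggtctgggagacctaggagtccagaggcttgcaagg

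The stretches differed in length (250 bases for Col3a1 and Col6a2, 123 for Col1a2, 126 for Col6a1), so motif counts are not comparable between genes. The Col3a1 stretch held 1 TATAAA and no GGGCGG, the Col1a2 stretch held 2 GGGCGG, the Col6a2 stretch held 1 and the Col6a1 stretch held none of the 3 motifs. Over the 38 collagen promoter windows of 250 bases, GGGCGG was found in 22 (57.9%) against 32.7% of 32851 windows of all genes. TATAAA was found in 13.2% against 12.4%, and CCAAT in 34.2% against 33.8%. The windows with CCAAT included those of Col1a2, Col4a1 and Col4a2, although the shorter stretches shown for these genes held none. A match is a description of the letters and not evidence of a bound factor.

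Of the 44 members, 34 passed the filter on low counts, namely all 11 fibrillar, all 6 type IV and 17 of the 27 other collagens. Col19a1 was at 0 in all 9 libraries, where a count of 0 allows up to 3 counts (0.115 to 0.221 CPM, counting error only). Col9a1, a cartilage FACIT chain, never passed 1 count, and Col10a1, the collagen of hypertrophic cartilage, never passed 5. Col25a1, Col26a1 and Col28a1 stayed at 14 counts or fewer. The other 4 untested members were near 0 apart from single libraries. Col20a1 had 69 counts in irradiated replicate 1 against 3 to 8 elsewhere, Col6a4 had 26 in irradiated replicate 3 against at most 4, Col6a5 had 28 in R788 + anti-PDL1 replicate 3 against at most 3, and Col6a6 had 19 in R788 + anti-PDL1 replicate 2 against at most 7.

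Levels of different genes were compared as CPM per kb of exon. Col1a1, the main chain of type I collagen, was the most abundant member (mean 330 CPM per kb over 9 libraries), followed by Col3a1, the type III chain (139), and Col5a1, a chain of the fibril-nucleating type V (80.7). The fibrillar group spanned a wide range, down to Col27a1 at 0.271 CPM per kb. Col4a2 led the type IV chains at 68.1 CPM per kb, ahead of Col4a1 (14.3), Col4a5 (5.59) and Col4a6 (2.07), while Col4a4 (0.255) and Col4a3 (0.0473), chains of specialised basement membranes, were the lowest tested type IV members. Among the other collagens, the type VI chains Col6a1 (66.9 CPM per kb), Col6a3 (39.2) and Col6a2 (25.7) and the FACIT member Col16a1 (34.2) were the most abundant. Neighbours such as Col4a2 and Col6a1 overlapped across libraries, so their order was not resolved. The Col16a1 mean included 99.7 CPM per kb in irradiated replicate 1, against 21.7 to 31.0 in the other libraries. With the longest coding transcript as the length, Col4a2 and Col6a1 swapped places, as did Col16a1 and Col6a2. The 3 genes at the top stayed in the order given.

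**Figure D1:**
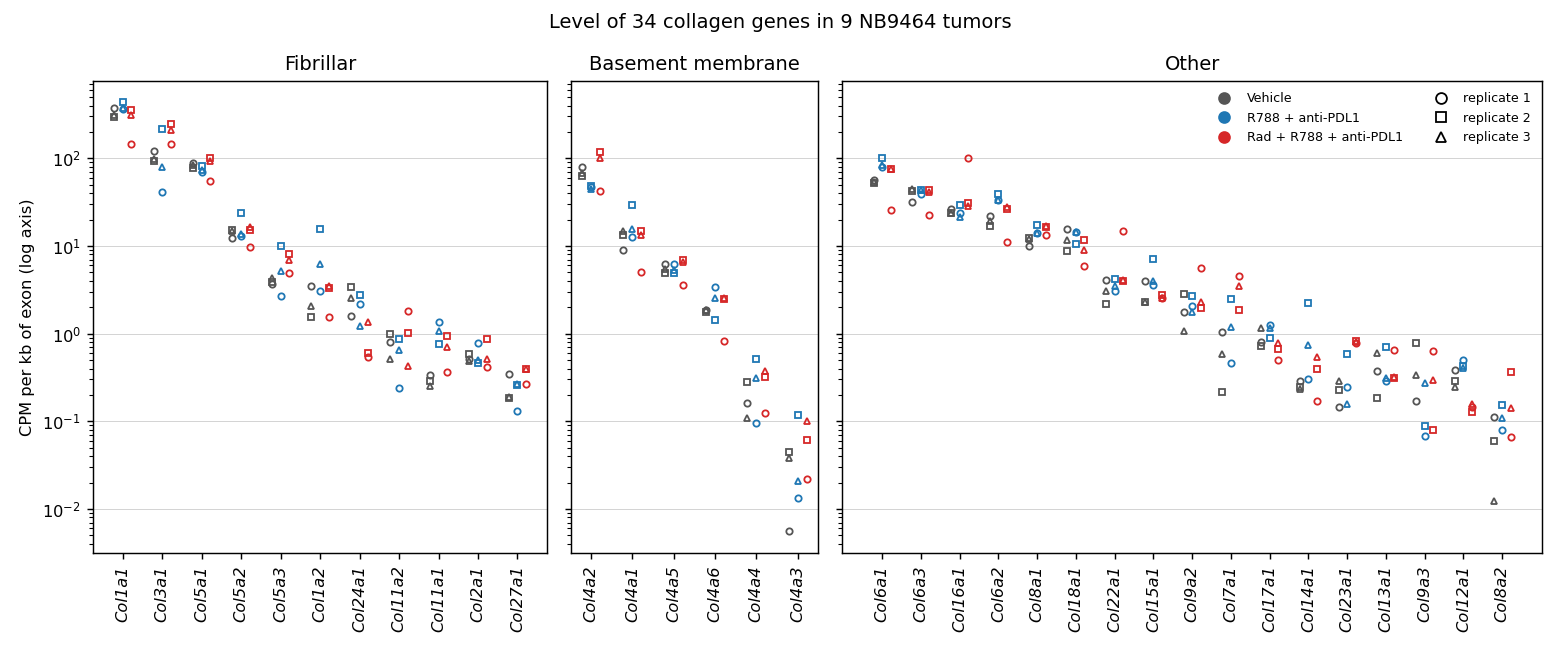
Level of the 34 tested collagen genes in each of 9 tumors, in CPM per kb of exon on a log axis, by class. Colors mark the 3 groups and symbols the 3 replicates of each group, Col1a1 lies highest among fibrillar chains (146 to 433 CPM per kb), and irradiated replicate 1 lies below the other libraries for Col1a1 and Col6a1 and above them for Col16a1.

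Fibrillar collagens made up 58.4% to 69.3% of the summed collagen level per kb in the 9 tumors, type IV chains 7.51% to 13.1% and the other collagens 20.0% to 33.2%. Col1a1, Col3a1 and Col5a1 with the other leading chains set these shares, since the 3 most abundant members of a library held 62.5% to 66.2% of its sum. The ratio of summed fibrillar to summed type IV level was 6.23, 5.92 and 5.76 in Vehicle replicates 1 to 3 and 7.23, 9.23 and 8.11 in R788 + anti-PDL1. The irradiated tumors gave 7.06, 5.13 and 5.21. All 3 R788 + anti-PDL1 tumors lay above all Vehicle and irradiated tumors, with means of 8.19 ± 1.002 (SD, n = 3) against 5.97 ± 0.238 and 5.80 ± 1.09. The ratio is a description over members, and no test was made of it. The summed type IV level was 68.2 to 85.2 CPM per kb in R788 + anti-PDL1 against 83.5 to 96.9 in Vehicle and 51.9 to 143 in the irradiated tumors. Col4a2 made up most of this sum, with a mean of 70.3 of 90.3 CPM per kb in Vehicle. In R788 + anti-PDL1 it was 46.5 of 74.1, and in the irradiated tumors 87.6 of 106.6. Of the 6 type IV chains, 4 had a log2 fold change above 0 in R788 + anti-PDL1 against Vehicle.

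**Figure D2:**
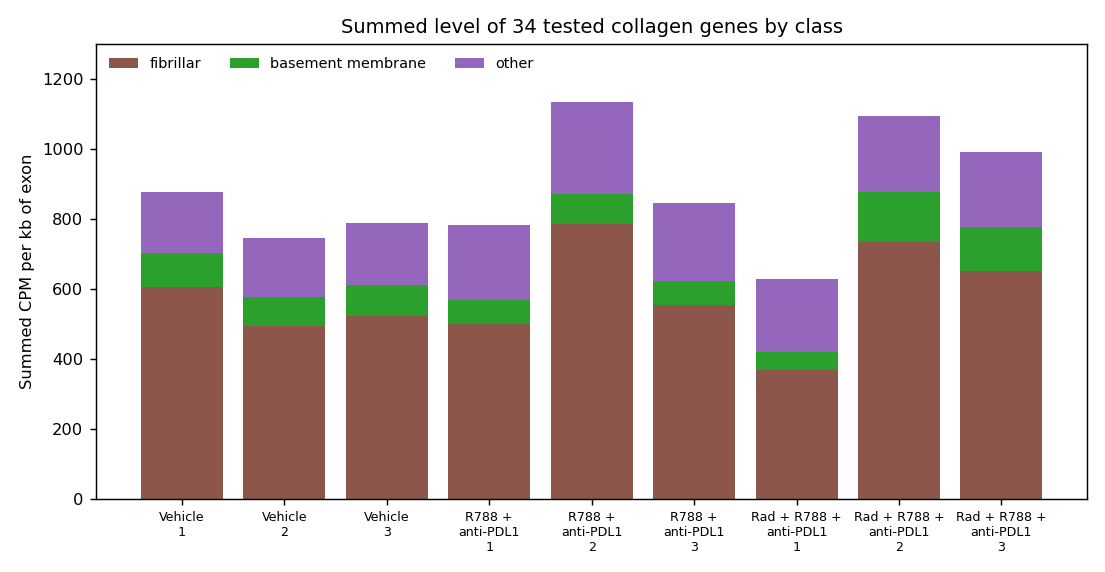
Summed level of the 34 tested collagens in each tumor, in CPM per kb of exon, stacked by class (bars start at 0). Fibrillar collagens form the largest part in every tumor, and the type IV part is 68.2 to 85.2 CPM per kb in the R788 + anti-PDL1 tumors and 51.9 to 143 CPM per kb in the irradiated tumors.

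Whether the treatments moved collagen genes was asked in 3 comparisons, each tested over 15931 genes with edgeR's quasi-likelihood test and Benjamini-Hochberg adjustment. In R788 + anti-PDL1 against Vehicle, collagen genes tended to lie higher in the treated tumors, most of all Col14a1, Col11a1 and Col1a2, and no member passed the threshold. The count was 0 of 34 at an adjusted p under 0.05, against 0.678% of all genes (108). At an unadjusted p under 0.05 there were 5 members (Col11a1, Col1a2, Col14a1, Col15a1 and Col6a2) against 11.7% of all genes. All 5 were higher and 0 lower, against 5.96% and 5.69% of all genes. DESeq2 called 3 members (Col11a1, Col14a1 and Col1a2) against 4.86% of all genes. Limma-voom called 0 members against 0.697%, and 11 against 30.3% with sample quality weights. With only the 6 libraries compared, edgeR called 3 (3.84% of all genes), and without the filter on low counts 1 (0.712%). The groups did not overlap for 7 members against 30.1% of all genes. Of these, Col6a1, Col6a2, Col8a1, Col11a1, Col12a1 and Col14a1 were higher (13.6% of all genes) and Col4a2 was lower (16.5%). The log2 fold change was above 0 for 26 of 34 members (76.5%), against 48.4% of all genes. Its median was 0.13 over the fibrillar, 0.53 over the type IV and 0.39 over the other collagens, against -0.02 over all genes. Without R788 + anti-PDL1 replicate 2, the type IV median was 0.10 and the fibrillar median turned to -0.0868.

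In irradiated tumors against Vehicle, the collagens with the highest fold changes were Col7a1, Col23a1 and Col8a2, and those with the lowest were Col24a1, Col12a1 and Col17a1. The count of members called was again 0 of 34 by edgeR, against 0.0439% of all genes (7). At an unadjusted p under 0.05 there were 8 members against 13.2% of all genes, 6 higher against 7.71% and 2 lower against 5.51%. DESeq2 called 5 members (Col11a1, Col12a1, Col23a1, Col24a1 and Col7a1) against 3.85% of all genes. Limma-voom called 0 members against 0.0753%, and 9 against 12.5% with sample quality weights. EdgeR also called 0 with only the 6 libraries compared (0.00667% of all genes), 0 without the filter (0.25%) and 0 without irradiated replicate 1 (0.343%). The groups did not overlap for 9 members against 20.5% of all genes. Higher were Col3a1, Col5a3, Col7a1, Col8a1, Col11a1, Col16a1 and Col23a1 (9.27% of all genes), and lower were Col12a1 and Col24a1 (11.2%). A log2 fold change above 0 was found for 23 of 34 members, against 52.9% of all genes. Class medians were 0.24 for fibrillar, 0.21 for type IV and 0.17 for other collagens, against 0.05 over all genes. With 1 library left out, they ran from 0.079 to 0.52 for fibrillar, from -0.044 (without irradiated replicate 2) to 0.59 (without irradiated replicate 1) for type IV and from 0.0517 to 0.47 for other collagens.

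Adding radiation to R788 + anti-PDL1 was read from the irradiated against the R788 + anti-PDL1 tumors. Here the collagens with the highest fold changes were Col23a1, Col7a1 and Col9a3, and those with the lowest were Col12a1, Col1a2 and Col14a1. By edgeR 0 of 34 members were called, against 0.00628% of all genes (1), and 8 members had an unadjusted p under 0.05, against 18.4% of all genes. Of these, 3 were higher (11.7% of all genes) and 5 lower (6.65%). DESeq2 called Col12a1 alone among 32 members with an adjusted p, against 5.62% of all genes. Limma-voom called 0 members against 0.0502%, and 6 against 19.3% with sample quality weights. Without the filter edgeR called 0 (0.0858% of all genes), and with only the 6 libraries compared 0 (0 genes in all). The groups did not overlap for 7 members against 27.4% of all genes. Of these, Col23a1 was higher (14.2% of all genes). Lower were Col1a1, Col6a1, Col6a2, Col12a1, Col15a1 and Col17a1 (13.2%). Without irradiated replicate 1, the log2 fold changes of Col1a1 and Col6a1 were both -0.21. Values above 0 were found for 17 of 34 members, against 52.5% of all genes. Medians were 0.06, -0.06 and -0.04 for fibrillar, type IV and other collagens, against 0.04 over all genes. Leaving out 1 library turned the sign of the first (-0.31 without irradiated replicate 2, 0.27 without irradiated replicate 1) and of the second (-0.36 without irradiated replicate 3, 0.24 without irradiated replicate 1). The 3 comparisons share groups, so a member that is high in 1 group appears in more than 1 of them.

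**Figure D3:**
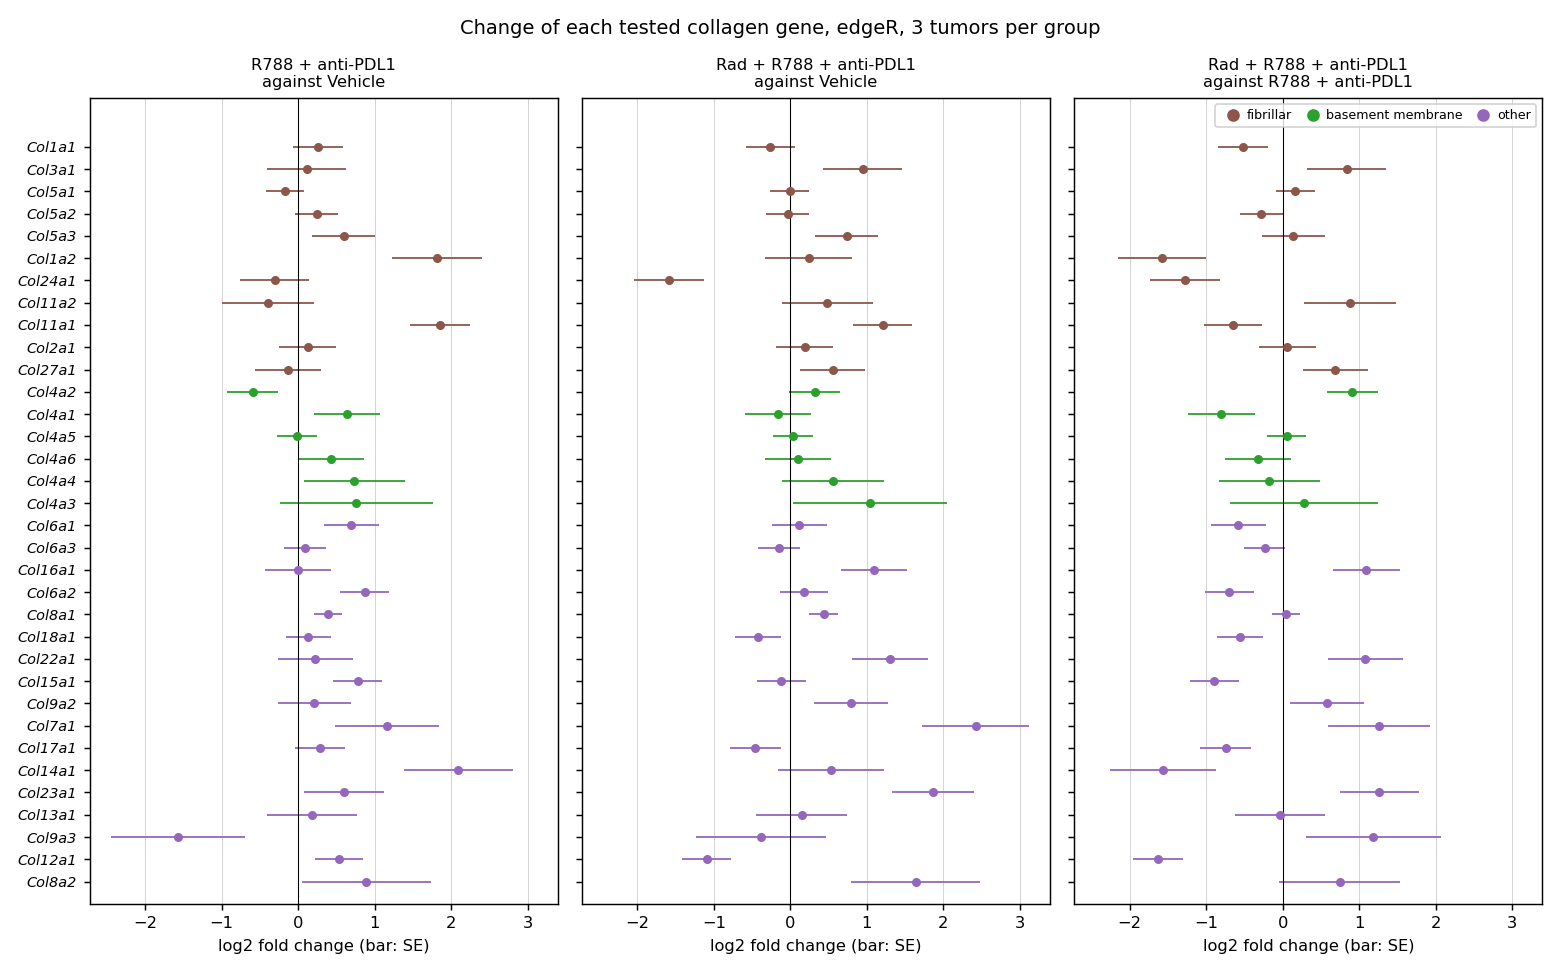
Log2 fold change of each of 34 tested collagen genes in the 3 comparisons, with bars of 1 SE (edgeR, 3 tumors per group) and colors by class. In R788 + anti-PDL1 against Vehicle 26 of 34 points lie above 0, and in the comparison of the 2 treated groups 17 of 34 do.

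Col1a1 stood at 2435, 1950.5 and 2045 CPM in Vehicle replicates 1 to 3, at 2399, 2845 and 2439 CPM in R788 + anti-PDL1, and at 959, 2343 and 2061 CPM in the irradiated tumors. The low irradiated value was that of replicate 1, and the groups overlapped except between the 2 treated groups. The log2 fold changes were 0.26 ± 0.32 (SE, edgeR adjusted p = 0.825) for R788 + anti-PDL1 against Vehicle, -0.26 ± 0.32 (adjusted p = 0.699) for irradiated against Vehicle and -0.52 ± 0.33 (adjusted p = 0.393) between the treated groups. Without irradiated replicate 1, the second of these was 0.07 and the third -0.21.

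Col3a1, the type III chain that co-assembles with type I in fibrils, varied more. Its levels were 1185, 911 and 976 CPM in Vehicle, 400.4, 2126 and 791 CPM in R788 + anti-PDL1, and 1436, 2402 and 2084 CPM in irradiated tumors. Every irradiated tumor lay above every Vehicle tumor, while the R788 + anti-PDL1 tumors spanned both. For irradiated against Vehicle the log2 fold change was 0.95 ± 0.52 (SE, edgeR adjusted p = 0.425), and it was 0.77 to 1.16 with any 1 library of the pair left out. Between R788 + anti-PDL1 and Vehicle it was 0.11 ± 0.51 (adjusted p = 0.963) and turned to -0.78 without R788 + anti-PDL1 replicate 2. Between the treated groups it was 0.84 ± 0.52 (adjusted p = 0.386), 1.73 without that library and 0.44 without R788 + anti-PDL1 replicate 1. An annotated transcript, Gm47302, overlaps Col3a1 exons on the same strand, so reads could be split between them.

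The balance of Col3a1 to Col1a1 within a tumor separated the irradiated group. The ratio of counts was 0.487, 0.467 and 0.477 in Vehicle, 0.167, 0.747 and 0.324 in R788 + anti-PDL1, and 1.497, 1.03 and 1.01 in irradiated tumors. The Vehicle tumors lay within 0.02 of one another, and all 3 irradiated tumors lay above all others, irradiated replicate 1 included. This ratio was picked after the values were seen, and an exact permutation test of 3 against 3 cannot give a p under 0.1, so none is given.

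Col1a2, the partner chain of Col1a1 in type I collagen, was far below it. Col1a2 stood at 43.7, 19.2 and 25.5 CPM in Vehicle, 37.7, 195 and 78.0 CPM in R788 + anti-PDL1, and 19.2, 41.6 and 43.1 CPM in irradiated tumors. The highest value was in R788 + anti-PDL1 replicate 2, the library with the highest fibroblast marker sum. The ratio of Col1a1 to Col1a2 counts was 55.8, 102 and 80.2 in Vehicle, 63.6, 14.6 and 31.3 in R788 + anti-PDL1, and 49.8, 56.3 and 47.9 in irradiated tumors. On the scale of CPM per kb the ratio ran from 27.7 to 193 over the 9 tumors. The annotated Col1a2 exons sum to 12426 bases, more than the 6563 of Col1a1, and with the longest coding transcript as the length the ratio ran from 13.2 to 91.7.

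The fold change of Col1a2 rested in large part on 1 library. For R788 + anti-PDL1 against Vehicle it was 1.81 ± 0.58 on the log2 scale (SE, edgeR adjusted p = 0.245), and 0.97 without R788 + anti-PDL1 replicate 2. Between irradiated and R788 + anti-PDL1 tumors it was -1.58 ± 0.58 (adjusted p = 0.234), and -0.74 without that library. The fibroblast markers summed to 173 to 190 CPM in Vehicle, 100.1, 338 and 148 CPM in R788 + anti-PDL1 replicates 1 to 3 and 180.0 to 227 CPM in irradiated tumors, with all 8 markers of the list above the filter. Of these markers, Lum, Dpt and Fap were not highest in R788 + anti-PDL1 replicate 2. The part of the fibroblast markers in the Col1a2 values was not tested.

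Col11a1, a chain of the minor fibrillar type XI that helps set fibril diameter, gave the lowest adjusted p of any member against Vehicle. It stood at 4.31, 3.68 and 3.18 CPM in Vehicle, at 17.1, 9.82 and 13.5 CPM in R788 + anti-PDL1, and at 4.65, 12.1 and 8.95 CPM in irradiated tumors. Both treated groups lay wholly above Vehicle. For R788 + anti-PDL1 the log2 fold change was 1.85 ± 0.39 (SE, edgeR adjusted p = 0.0793), a 3.61-fold difference, and it stayed between 1.64 and 2.04 with any 1 library left out. DESeq2 called it with an adjusted p of 0.00016, and edgeR called it when only the 6 libraries compared were fitted. The highest Col11a1 value was in R788 + anti-PDL1 replicate 1.

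The other fibrillar chains differed less or were scarce. Col5a1 stood at 757, 664 and 719 CPM in Vehicle, 586, 696 and 617 CPM in R788 + anti-PDL1, and 464, 863 and 799 CPM in irradiated tumors. Col5a2, its partner in type V collagen, stood at 118, 145 and 143 CPM, then 125, 226 and 130.5 CPM, then 93.2, 145 and 158 CPM in the same order. All groups overlapped for both genes, and their count ratio ran from 3.08 to 6.41. Col24a1, a fibrillar chain of developing bone, stood at 12.2, 26.0 and 19.6 CPM in Vehicle, 16.5, 20.98 and 9.22 CPM in R788 + anti-PDL1, and 4.13, 4.62 and 10.4 CPM in irradiated tumors, so that every irradiated tumor lay below every Vehicle tumor. Its log2 fold change for irradiated against Vehicle was -1.59 ± 0.46 (SE, edgeR adjusted p = 0.261), and DESeq2 called it (adjusted p = 0.033). Col11a2 stood at 5.58, 6.83 and 3.56 CPM in Vehicle, 1.63, 6.00 and 4.51 CPM in R788 + anti-PDL1 and 12.6, 6.90 and 2.92 CPM in irradiated tumors. The groups overlapped, and its log2 fold change for R788 + anti-PDL1 against Vehicle was -0.39 ± 0.60 (edgeR adjusted p = 0.858), -0.0223 without R788 + anti-PDL1 replicate 1 and -0.79 without replicate 2 of that group. Col2a1, the main chain of cartilage, lay at 3.84 to 8.12 CPM and Col27a1 at 1.72 to 5.21 CPM. Col5a3 lay at 24.8 to 29.4 CPM in Vehicle and 33.1 to 54.8 CPM in irradiated tumors without overlap, while R788 + anti-PDL1 tumors overlapped both (18.3 to 68.8 CPM).

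**Figure D4:**
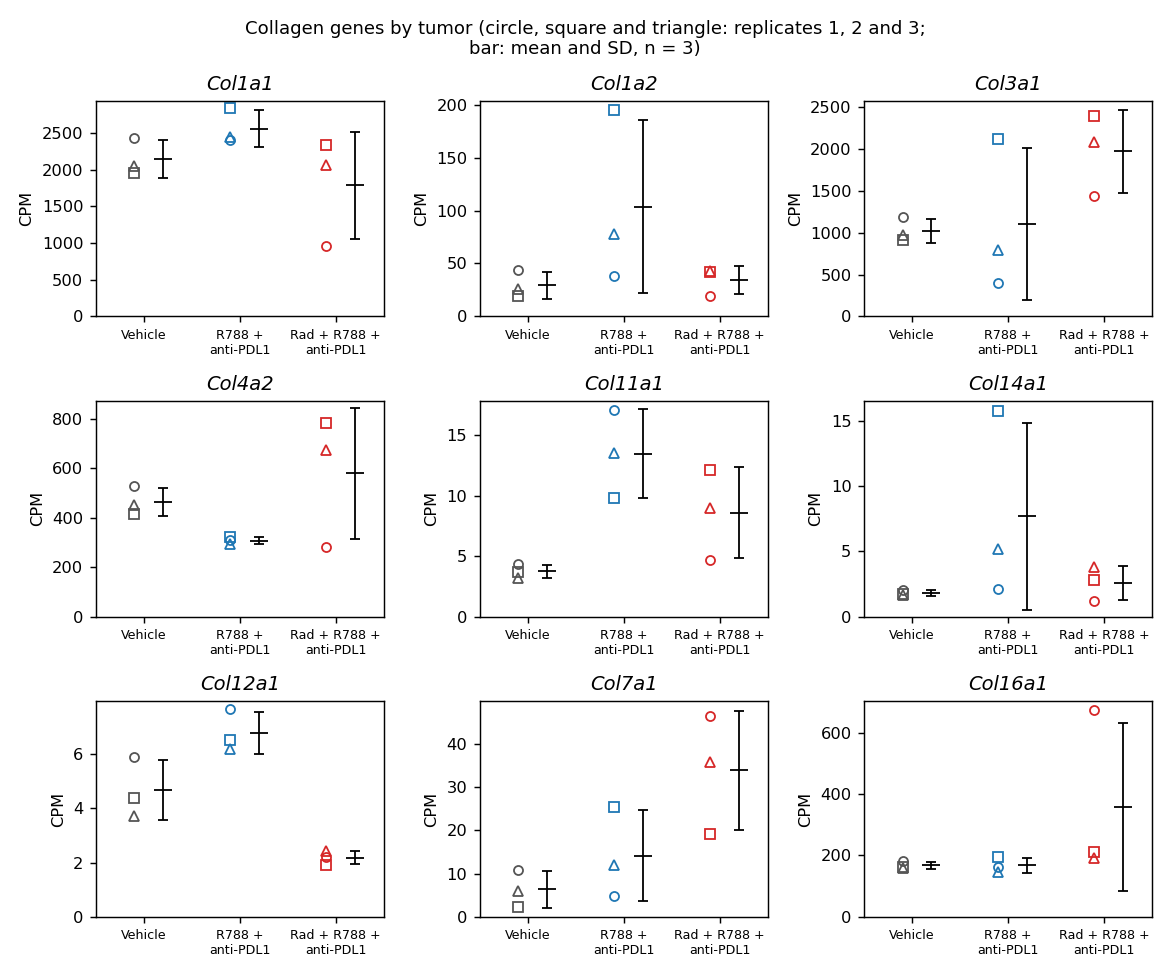
CPM of 9 collagen genes in each tumor (circle, square and triangle are replicates 1, 2 and 3), with the mean and SD of 3 tumors beside the points and each axis starting at 0. R788 + anti-PDL1 replicate 2 is the highest point for Col1a2 (195 CPM) and Col14a1 (15.8 CPM), irradiated replicate 1 is the highest for Col16a1 (673 CPM), and the Col12a1 values of the irradiated tumors (1.93 to 2.42 CPM) lie below all others.

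The chains of the common basement membrane network, Col4a2 and Col4a1, had fold changes of opposite sign. Col4a2 stood at 528, 417 and 451 CPM in Vehicle, 308, 322 and 293 CPM in R788 + anti-PDL1, and 279.8, 784 and 675 CPM in irradiated tumors. All R788 + anti-PDL1 tumors lay below all Vehicle tumors, and in the irradiated group replicate 1 was low and the other two were above every Vehicle tumor. In the fit the log2 fold change was -0.60 ± 0.33 (SE, edgeR adjusted p = 0.565) for R788 + anti-PDL1 against Vehicle and 0.91 ± 0.34 (adjusted p = 0.234) between the treated groups. Without irradiated replicate 1 the latter was 1.25 and was called (edgeR adjusted p = 0.0163), 1 of 35 members tested in that fit against 0.126% of all genes.

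Col4a1, which assembles with Col4a2, stood at 66.5, 101 and 111 CPM in Vehicle, 94.5, 219.8 and 118 CPM in R788 + anti-PDL1, and 37.8, 110.5 and 99.1 CPM in irradiated tumors. These groups overlapped. The log2 fold change was 0.64 ± 0.44 (SE, edgeR adjusted p = 0.653) for R788 + anti-PDL1 against Vehicle, 0.20 without R788 + anti-PDL1 replicate 2, and -0.80 ± 0.44 (adjusted p = 0.335) between the treated groups, -0.36 without the same library. In both comparisons the sign was opposite to that of Col4a2.

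Although the annotated starts of both genes share the 22 bases printed above, the ratio of Col4a2 to Col4a1 counts differed between tumors. It was 7.94, 4.14 and 4.08 in Vehicle, 3.26, 1.47 and 2.48 in R788 + anti-PDL1, and 7.39, 7.09 and 6.81 in irradiated tumors. The R788 + anti-PDL1 tumors lay below all others, and the irradiated tumors lay close to one another, replicate 1 included. The mean ratio was 5.38 ± 2.21 (SD, n = 3) in Vehicle, 2.40 ± 0.901 in R788 + anti-PDL1 and 7.10 ± 0.291 in irradiated tumors. It was picked after the values were seen and was given no test. Another transcript, Gm15419, overlaps Col4a2 exons on the opposite strand, and strandedness was not stated, so its reads could not be told apart from those of Col4a2.

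**Figure D5:**
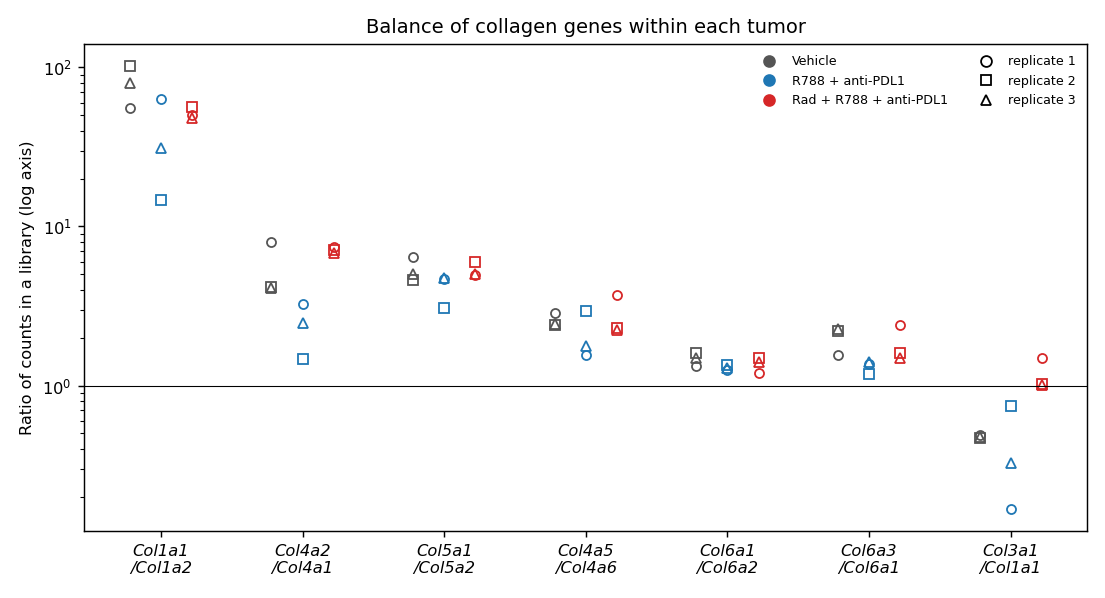
Ratio of counts of pairs of collagen genes within each tumor, on a log axis, with colors for the 3 groups, symbols for the replicates and a line at 1. The Col4a2 to Col4a1 ratio is lowest in the R788 + anti-PDL1 tumors (1.47 to 3.26), the Col3a1 to Col1a1 ratio is highest in the irradiated tumors (1.01 to 1.497), and the Col6a1 to Col6a2 ratio stays between 1.20 and 1.61.

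The remaining type IV chains showed no separation between groups. Col4a5 stood at 42.3, 33.3 and 36.6 CPM in Vehicle, 41.7, 33.4 and 35.7 CPM in R788 + anti-PDL1, and 24.2, 45.97 and 44.7 CPM in irradiated tumors. Col4a6, its head-to-head neighbor 1.31 kb away on the X chromosome, stood at 14.7, 13.9 and 14.9 CPM, then 26.9, 11.4 and 20.2 CPM, then 6.56, 19.99 and 20.1 CPM in the same order. The lowest value of both was in irradiated replicate 1, and their count ratio was 1.55 to 3.68. Col4a4 lay at 1.01 to 5.47 CPM and Col4a3 at 0.0552 to 1.18 CPM, in places under the limit that a count of 0 allows. Their starts are 0.07 kb apart.

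The type VI chains, which form the beaded filaments around cells, included the pair with the narrowest ratio, Col6a1 to Col6a2 (1.20 to 1.61 in counts). Col6a1 stood at 246, 228 and 238 CPM in Vehicle, 347, 442 and 366 CPM in R788 + anti-PDL1, and 111.3, 330.3 and 330.4 CPM in irradiated tumors. Col6a2 stood at 185, 142 and 159.8 CPM, then 277, 329 and 282 CPM, then 92.6, 221 and 235 CPM in the same order. For both genes every R788 + anti-PDL1 tumor lay above every Vehicle and irradiated tumor. The log2 fold change against Vehicle was 0.70 ± 0.36 (SE, edgeR adjusted p = 0.517) for Col6a1 and 0.87 ± 0.32 (adjusted p = 0.317) for Col6a2. With only the 6 libraries of this comparison in the fit, edgeR called both, with adjusted p of 0.0311 for Col6a1 and 0.0231 for Col6a2. Between the treated groups the values were -0.58 ± 0.36 (edgeR adjusted p = 0.386) for Col6a1 and -0.70 ± 0.32 (adjusted p = 0.277) for Col6a2, and -0.21 and -0.37 without irradiated replicate 1. Col6a3, the third chain of the filament, stood at 385, 504 and 536 CPM in Vehicle, 473, 522 and 517 CPM in R788 + anti-PDL1, and 268, 525.5 and 492 CPM in irradiated tumors, and the groups overlapped. The ratio of Col6a3 to Col6a1 counts was 1.18 to 1.41 in R788 + anti-PDL1, below the 1.56 to 2.25 of Vehicle.

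FACIT members, which decorate fibril surfaces, included several values that depended on single libraries. Col14a1 stood at 2.04, 1.71 and 1.64 CPM in Vehicle, 2.12, 15.8 and 5.16 CPM in R788 + anti-PDL1, and 1.18, 2.79 and 3.79 CPM in irradiated tumors. Its log2 fold change for R788 + anti-PDL1 against Vehicle was 2.09 ± 0.71 (SE, edgeR adjusted p = 0.266), and 1.02 without R788 + anti-PDL1 replicate 2. The groups did not overlap, but R788 + anti-PDL1 replicate 1 was only just above Vehicle. Between the treated groups it was -1.56 ± 0.69 (adjusted p = 0.271), and -0.48 without that library.

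Col12a1, a FACIT chain of dense connective tissue, was the member with the lowest adjusted p between the treated groups. It stood at 5.91, 4.401 and 3.73 CPM in Vehicle, 7.67, 6.54 and 6.19 CPM in R788 + anti-PDL1, and 2.21, 1.93 and 2.42 CPM in irradiated tumors. The 3 groups did not overlap, with irradiated tumors lowest and R788 + anti-PDL1 highest. The log2 fold change was -1.63 ± 0.32 (SE, edgeR adjusted p = 0.135) between the treated groups, between -1.72 and -1.54 with any 1 library left out, and DESeq2 called it (adjusted p = 3.76e-05). For irradiated against Vehicle it was -1.09 ± 0.32 (edgeR adjusted p = 0.265), which DESeq2 also called (adjusted p = 0.0255).

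Col16a1 stood at 180.1, 162 and 160.4 CPM in Vehicle, 160.5, 196 and 146 CPM in R788 + anti-PDL1, and 673, 209.5 and 192 CPM in irradiated tumors. Every irradiated tumor lay above every Vehicle tumor, but irradiated replicate 1 carried most of the difference. The log2 fold change against Vehicle was 1.09 ± 0.43 (SE, edgeR adjusted p = 0.350), and 0.29 without irradiated replicate 1. Against R788 + anti-PDL1 the value was 1.10 ± 0.43 (adjusted p = 0.248), and 0.27 without it. Col22a1 and Col9a2, also of the FACIT class, were highest in the same library, Col22a1 at 136 CPM against 20.1 to 39.1 CPM elsewhere and Col9a2 at 17.3 CPM against 3.34 to 8.67 CPM. Col9a3 was scarce, at 0.663, 3.01 and 1.32 CPM in Vehicle, 0.265, 0.344 and 1.07 CPM in R788 + anti-PDL1 and 2.43, 0.304 and 1.14 CPM in irradiated tumors. Its groups overlapped, with log2 fold changes of -1.57 ± 0.88 (edgeR adjusted p = 0.564) for R788 + anti-PDL1 against Vehicle and 1.18 ± 0.88 (adjusted p = 0.461) between the treated groups, and exons of Tcfl5 overlap it on the opposite strand. The first was -0.82 without Vehicle replicate 2 and -2.43 without R788 + anti-PDL1 replicate 3, and the second was 0.39 without irradiated replicate 1 and 2.04 without R788 + anti-PDL1 replicate 3.

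Col7a1, which forms the anchoring fibrils below stratified epithelium, stood at 10.8, 2.2004 and 6.03 CPM in Vehicle, 4.76, 25.5 and 12.1 CPM in R788 + anti-PDL1, and 46.5, 19.2 and 35.9 CPM in irradiated tumors. All irradiated tumors lay above all Vehicle tumors, a 5.36-fold difference in the fit. The log2 fold change was 2.42 ± 0.70 (SE, edgeR adjusted p = 0.256) for irradiated against Vehicle, between 2.005 and 3.05 with any 1 library left out, and DESeq2 called it (adjusted p = 0.0117). Between the treated groups it was 1.26 ± 0.67 (edgeR adjusted p = 0.324), with overlap, and 2.0018 without R788 + anti-PDL1 replicate 2. Krt5, a keratin of basal epithelium, was 46.5 to 75.01 CPM in irradiated tumors, 3.05 to 7.51 CPM in Vehicle, and 1.90, 63.1 and 22.7 CPM in R788 + anti-PDL1. The 5 keratinocyte markers summed to 7.95 to 8.61 CPM in Vehicle, 2.16 to 64.2 CPM in R788 + anti-PDL1 and 47.4 to 75.8 CPM in irradiated tumors, and most of the sum in each treated tumor was Krt5. Krt14 was higher in Vehicle (0.221, 1.84 and 2.36 CPM) than in the treated tumors (0 to 0.102 CPM), Trp63 lay at 0.221 to 3.55 CPM in Vehicle and 0.265 to 1.01 CPM in the treated tumors, and Krt1 was at or under the limit that a count of 0 allows in every library. Their part in the Col7a1 values was not tested.

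Membrane-spanning collagens were low. Col23a1 stood at 0.828, 1.30 and 1.64 CPM in Vehicle, 1.41, 3.40 and 0.902 CPM in R788 + anti-PDL1, and 4.50, 4.72 and 4.57 CPM in irradiated tumors. The irradiated tumors lay close together and above all others. Its log2 fold change was 1.86 ± 0.54 (SE, edgeR adjusted p = 0.256) for irradiated against Vehicle, which DESeq2 called (adjusted p = 0.0208), and 1.27 ± 0.52 (edgeR adjusted p = 0.253) between the treated groups, 1.99 without R788 + anti-PDL1 replicate 2. Col17a1, the hemidesmosomal collagen of epithelium, stood at 4.80, 4.36 and 7.02 CPM in Vehicle, 7.45, 5.31 and 6.93 CPM in R788 + anti-PDL1, and 3.02, 4.01 and 4.70 CPM in irradiated tumors, and its log2 fold change for irradiated against Vehicle was -0.46 ± 0.33 (edgeR adjusted p = 0.521), and -0.23 without Vehicle replicate 3. It thus lay on the other side of 0 from Col7a1, its neighbor in epithelial anchoring.

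Of the network-forming and multiplexin members, Col8a1, a collagen of vessel walls and the cornea, was lowest in Vehicle, at 79.3 to 96.1 CPM against 109 to 136 CPM in R788 + anti-PDL1 and 104.5 to 131 CPM in irradiated tumors. Col8a2, which pairs with it, was far scarcer, at 0.497, 0.269 and 0.0548 CPM in Vehicle, 0.353, 0.688 and 0.492 CPM in R788 + anti-PDL1, and 0.295, 1.62 and 0.639 CPM in irradiated tumors. The Col8a2 groups overlapped, with a log2 fold change for irradiated against Vehicle of 1.64 ± 0.84 (SE, edgeR adjusted p = 0.409) that was 0.78 without irradiated replicate 2. Col18a1, the source of endostatin, lay at 41.2 to 108 CPM with overlap. Col15a1 lay at 14.4 to 25.1 CPM in Vehicle, 22.7 to 44.8 CPM in R788 + anti-PDL1 and 16.0 to 17.6 CPM in irradiated tumors, with the 2 treated groups apart.

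The machinery that makes, exports, crosslinks, binds and degrades collagen was examined as 75 genes in 7 lists, of which 70 were tested. EdgeR called 0 of 70 in each of the 3 comparisons, with 20, 12 and 15 at an unadjusted p under 0.05 for R788 + anti-PDL1 against Vehicle, irradiated against Vehicle and irradiated against R788 + anti-PDL1, where the shares of all genes were 11.7%, 13.2% and 18.4%. DESeq2 called 10, 2 and 9, against 4.86%, 3.85% and 5.62% of all genes. Their median log2 fold changes were 0.10, 0.03 and -0.06, with 42, 39 and 32 of 70 above 0, against 48.4%, 52.9% and 52.5% of all genes. The crosslinking list (Lox and its 4 relatives) summed to 35.1 to 39.5 CPM in Vehicle, 47.4 to 54.9 CPM in R788 + anti-PDL1 and 26.6 to 39.4 CPM in irradiated tumors. Lox, lysyl oxidase, stood at 1.10, 2.47 and 2.96 CPM, then 7.05, 11.1 and 7.75 CPM, then 0.516, 1.62 and 1.87 CPM in that group order. Its log2 fold change between the treated groups was -2.67 ± 0.55 (SE, edgeR adjusted p = 0.139). In R788 + anti-PDL1 against Vehicle, 3 of the 5 crosslinking genes were higher, while Loxl3 (-0.22) and Loxl4 (-0.42) were lower. The export and processing list summed to 675 to 775 CPM in Vehicle and 490 to 667 CPM in R788 + anti-PDL1. Of its 9 tested genes 6 were higher, but Pcolce was lower (-1.32 ± 0.32, edgeR adjusted p = 0.11). Serpinh1, of the folding list (8 of 18 higher), was also lower (-0.78 ± 0.24, edgeR adjusted p = 0.219).

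The partner genes with the largest fold changes in each comparison also included Mfap5, Fbn1, Fmod and Mmp8. Mfap5, a microfibril protein, lay at 0.221 to 0.713 CPM in Vehicle, 1.01 to 7.38 CPM in R788 + anti-PDL1 and 1.22 to 3.75 CPM in irradiated tumors. Its log2 fold change against Vehicle was 3.29 ± 0.85 (edgeR adjusted p = 0.136) for R788 + anti-PDL1 and 2.57 ± 0.84 (adjusted p = 0.285) for irradiated tumors. Fbn1, fibrillin-1, was 10.3, 68.4 and 28.4 CPM in R788 + anti-PDL1 against 4.33 to 7.18 CPM in Vehicle (2.66 ± 0.83 on the log2 scale, edgeR adjusted p = 0.227). Fmod, fibromodulin, was 14.0, 55.0 and 25.3 CPM in R788 + anti-PDL1 against 1.62 to 7.44 CPM in irradiated tumors (-3.09 ± 0.69 on the log2 scale, edgeR adjusted p = 0.163). For Mfap5, Fbn1 and Fmod the highest value was in R788 + anti-PDL1 replicate 2, as it was for Col1a2 and Col14a1. Mmp8, a collagenase of neutrophils, never passed 1.26 CPM. The macrophage markers summed to 813 CPM in irradiated replicate 3 and to 126 to 281 CPM in the other 8 libraries.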

How the data were processed

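The authors used STAR for alignment to mm10 and Salmon, within bcbio, for quantification, and per the submitters' processing notes the versions were STAR 2.6.1d, Salmon 1.4.0, SAMtools 1.9, Picard 2.26 and MultiQC 1.11. The deposited table holds estimated counts per gene symbol as whole numbers, with no normalization. The extraction label names cultured macrophages while tissue and design name whole tumor, the sequencing run is described differently by the labels and the methods, and strandedness was not given in the sources used here.

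Samples were grouped by the treatment label. Genes were filtered with filterByExpr (minimum count 10), TMM-normalized and tested in edgeR 4.0.16 (R 4.3.3) by the robust quasi-likelihood F test in 1 fit of 9 libraries with a coefficient per group. Benjamini-Hochberg adjusted p-values under 0.05 were called. Tests were two-sided, SE is the absolute log2 fold change divided by the square root of F, and the pipeline was tested on simulated data. CPM used TMM library sizes, and CPM per kb used the summed exon length in GENCODE M21. Floors of 3 counts cover counting error only, since no molecular identifiers are described.

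Values per library are given for the 4 most abundant members per class and, per comparison, the 3 highest and 3 lowest log2 fold changes; other members are given by range. The members and gene lists were chosen with earlier results of these data known. Alternatives were DESeq2 1.42.0, limma-voom (limma 3.58.1) with and without sample quality weights, other normalizations, filters and lengths, the 6 libraries compared, a replicate block and leaving out each library. Sequences came from RefSeq.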

Additional observations from a re-analysis of the deposited data

How the results depend on the processing

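Of the refits of single collagen fold changes, 455 kept direction and side of the threshold, 29 kept direction and passed it, and 7 turned direction. The exceptions were Col3a1 in R788 + anti-PDL1 against Vehicle (-0.22 by limma-voom, -0.40 with quality weights, -0.19 with the replicate block, -0.78 without R788 + anti-PDL1 replicate 2, -0.78 to 0.51 over all libraries left out), Col1a1 in irradiated against Vehicle (0.0774 with quality weights, 0.0657 without irradiated replicate 1, -0.51 to 0.0657 over all libraries left out) and Col9a3 between the treated groups (-0.44 with quality weights). The cause was not tested. Calls depended on the tool, while RLE and upper-quartile scaling moved no count of calls by more than 1.5 times. In the order R788 + anti-PDL1 against Vehicle, irradiated against Vehicle and irradiated against R788 + anti-PDL1, genes called were 770, 611 and 822 by DESeq2, 4835, 1993 and 3080 with quality weights (30.3%, 12.5% and 19.3%), 199, 70 and 24 without the filter, and 594, 1 and 0 with only the 6 libraries compared, where fewer samples enter. Limma-voom called 111, 12 and 8. Collagens called were 3, 5 and 1 by DESeq2 and 11, 9 and 6 with quality weights. In the first comparison 1 (Col11a1) was called without the filter and 3 (Col11a1, Col6a1, Col6a2) with 6 libraries. Leaving out 1 library gave 0 to 75, 1 to 57 and 0 to 21 genes and 0, 0 and 0 to 1 collagens, the single call being Col4a2 without irradiated replicate 1. In the partner lists, DESeq2 called 10, 2 and 9, quality weights 35, 19 and 26, the 6 libraries 7 in the first comparison and no filter 1 in the third, and leaving out 1 library gave 0 to 1, 0 to 2 and 0. The type IV median in the first comparison was 0.0946 with quality weights and 0.10 to 0.56 with 1 library left out. For the other collagens the median against Vehicle after irradiation was 0.49 without the filter, 0.44 with quality weights and 0.0517 to 0.47 with 1 library left out, and between the treated groups -0.26 with 10 counts required in every library and -0.27 to -0.0282 with 1 left out. The fibrillar median between the treated groups was -0.31 to 0.27 with 1 left out. With Col1a1, Col1a2 and Col3a1 over Col4a1 and Col4a2 alone, the Vehicle ratio was 5.23. Lengths of the longest coding transcript, chosen after seeing the data, gave 246 CPM per kb for Col3a1, 21.5 for Col5a2 and 46.0 for Col6a2.

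The replicate block left 0, 3 and 0 genes and 0 collagens called in the 3 comparisons. Same-numbered tumors deviated together at r from -0.046 to 0.233, and not all pairs passed 0.1, so the numbers were read as names only. Depth limits the 10 untested members and Col4a3, Col8a2 and Col9a3 to low counts, at most 69 in any library (Col20a1 in irradiated replicate 1). For the rest, 3 tumors per group are the limit.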
